A study of Mus musculus with 9 samples.

Results

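The genes for the Fc receptors of bone marrow-derived DCs were followed across 3 conditions. They are *Fcgr1*, *Fcgr2b*, *Fcgr3*, *Fcgr4*, *Fcer1g* and *Fcgrt*, 6 of the 55471 genes in the deposited counts, taken by their symbols, and all 6 passed the filter on low counts. Fc receptors bind the constant part of antibodies and so link antibody to the cells of innate immunity. Activating receptors for IgG (FcγRI, FcγRIII and FcγRIV in the mouse) signal through the common γ chain, whose ITAM is phosphorylated by Src family kinases and then recruits the kinase Syk. The inhibitory receptor FcγRIIB carries an ITIM and recruits the lipid phosphatase SHIP1, so that the balance of both kinds of receptor sets how strongly a DC answers an immune complex. The neonatal receptor FcRn works inside the cell, where it carries IgG and albumin away from lysosomal degradation.

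RNA was sequenced from DCs grown with GM-CSF from the bone marrow of wild type C57BL/6 mice. The DCs were left unstimulated, activated with LPS (a bacterial membrane component sensed by a Toll-like receptor) at 100 ng/mL, or treated with IFN-β (a type I interferon) at 1000 U/mL, all for 6 h. Each group had 3 libraries, lettered A, B and C, and nothing in the sources used here says whether the letters mark separate cultures or mice, so that p-values measure the spread between these libraries only. Such cultures hold macrophage-like cells beside DCs, and they were not sorted as far as the sources used here state.

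The libraries held 33425803 to 43735199 counts on genes. Levels are given as CPM, the usual count share of the TMM-scaled library, in which a count of 3 equals 0.0674 to 0.106 CPM. Markers of DCs summed to 4355 to 6739 CPM in the 9 libraries (8 genes, with *Cd209a* at 0 to 16 counts), and markers of macrophages and monocytes to 1805 to 2504 CPM (7 genes). *Cd74*, *Itgax* and *H2-Ab1* made up most of the DC sum, with 2923, 1367 and 723 of 5197 CPM in unstimulated library A. Over the 9 libraries, *Ccr7* had 112 to 368 CPM, *Zbtb46* 27.8 to 57.4, *Batf3* 9.73 to 27.7 and *Flt3* 1.88 to 4.99. *Csf1r* gave 1198 of the 2347 CPM of the macrophage and monocyte sum in unstimulated library A. The sums therefore do not give the share of each cell type, which was not tested. Granulocyte markers reached 19.97 to 160 CPM (7 genes), mast cell and basophil markers 2.60 to 11.1 CPM (5 genes), B cell markers 0.159 to 0.531 CPM (5 genes) and T and NK cell markers 0 to 0.304 CPM (4 genes). All 5 interferon response genes rose with both stimuli. All 5 LPS response genes rose with LPS, and 3 of them with IFN-β (5 with the library letters as a block).

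The ligand-binding chains of 3 receptors lie in a row on chromosome 1, near the γ chain (GRCm38 coordinates of the GENCODE annotation). *Fcgr2b* lies at chr1:170958617-170976547 on the minus strand, *Fcgr4* at chr1:171018920-171029761 on the plus strand, *Fcgr3* at chr1:171051174-171064935 on the minus strand and *Fcer1g* at chr1:171229572-171234365 on the minus strand. *Fcgr1* lies apart from them at chr3:96282909-96293969, and *Fcgrt* at chr7:45092990-45103851, both on the minus strand. *Fcgr2b* and *Fcgr3* resemble each other in sequence. Of the 100-base windows of their transcripts, 1.40% in *Fcgr2b* and 2.54% in *Fcgr3* also occur in transcripts of other genes, and none do in the other 4 members. An antisense gene, Gm38204, covers 155 exon bases of *Fcgr2b* and held 1 to 25 counts per library, against at least 7690 for *Fcgr2b*. Whether the counting used strand is not given in the sources used here, so reads of these overlapping bases cannot be assigned with certainty.

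The 170 bases before the start site of the members that rose most, *Fcgr1* and *Fcgr4*, and of *Fcgr3*, which did not rise, are shown so that their motifs can be read beside the values. They come from the promoter table of RefSeq (GRCm38.p6), written from 5′ to 3′ on the strand of the gene, and the last base is the one before the start site. They lie at chr3:96293970-96294139, chr1:171018756-171018925 and chr1:171059404-171059573. The RefSeq start site of *Fcgr3* used here lies inside the gene span given above. So does another RefSeq start site of *Fcgr3*, whose stretch at chr1:171059395-171059564 is not shown. The last 6 bases of the *Fcgr4* stretch fall in an exon of the GENCODE annotation. Capitals mark a match on either strand to GAS (TTCNNNGAA, bound by STAT proteins), the ISRE core (GAAANNGAA, bound by interferon-activated factors), the NF-kB core (GGNNTTTCC) or the PU.1 core (GAGGAA, a myeloid factor), none of which overlap here.
*Fcgr1*: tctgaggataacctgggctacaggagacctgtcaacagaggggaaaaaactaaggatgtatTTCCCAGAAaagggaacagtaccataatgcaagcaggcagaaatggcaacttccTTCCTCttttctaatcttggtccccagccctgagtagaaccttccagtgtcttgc
*Fcgr4*: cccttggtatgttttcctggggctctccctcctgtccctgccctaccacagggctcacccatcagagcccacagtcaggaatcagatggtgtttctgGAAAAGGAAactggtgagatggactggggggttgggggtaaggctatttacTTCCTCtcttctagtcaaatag
*Fcgr3*: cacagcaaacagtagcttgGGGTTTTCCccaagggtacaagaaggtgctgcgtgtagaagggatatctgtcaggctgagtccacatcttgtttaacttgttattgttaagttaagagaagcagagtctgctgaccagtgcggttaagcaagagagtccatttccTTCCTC

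The *Fcgr1* stretch held a GAS, TTCCCAGAA, from base -109 to -101 before the start site. The *Fcgr4* stretch held an ISRE core, GAAAAGGAA, from base -73 to -65. PU.1 cores stood in all 3, each read as TTCCTC, starting at base -55 in *Fcgr1*, at base -22 in *Fcgr4* and at base -6 in *Fcgr3*. An NF-kB core stood at base -151 of *Fcgr3* (GGGTTTTCC) and, among the members not shown, at base -161 of *Fcgrt* (GGCCTTTCC). Counted from the other start site of *Fcgr3*, its PU.1 core started at base -15 and its NF-kB core at base -160. The windows of *Fcgr2b* and *Fcer1g* held no match. The *Fcgr2b* stretch, at chr1:170976072-170976241, lies inside its gene span and overlaps annotated exons. So do 16 bases of the *Fcer1g* stretch. For *Fcgr2b*, sequence before the GENCODE gene end was thus not read. Over all 32851 promoter windows in the table, each of 250 bases before and 50 after a start site, 8.30% held a GAS, 8.56% an ISRE core, 5.82% an NF-kB core and 28.3% a PU.1 core. A match is a description of the letters, and binding was not measured.

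LPS changed 5 of the 6 Fc receptor genes, with *Fcgr1*, *Fcgr4* and *Fcer1g* higher and *Fcgr3* and *Fcgrt* lower. Of all 16260 genes tested, LPS changed 68.2%, with 32.8% higher and 35.4% lower. IFN-β also changed 5 of 6, with *Fcgr1*, *Fcgr4* and *Fcer1g* higher and *Fcgr2b* and *Fcgrt* lower, where 46.9% of all genes changed (23.6% higher, 23.3% lower). Both comparisons share the unstimulated libraries. The direct comparison of IFN-β with LPS called 4 members, *Fcgr3* and *Fcgrt* higher with IFN-β and *Fcgr2b* and *Fcer1g* lower, where 49.1% of all genes were called (25.8% higher, 23.3% lower). The libraries of the groups did not overlap for 5, 5 and 4 members, where this held for 72.4%, 58.1% and 56.8% of all genes. The median log2 fold change of the members was 0.69 with LPS and 0.25 with IFN-β, beside -0.04 and -0.02 over all genes. With these large backgrounds, the number of members called says little about Fc receptors as a group, and the sizes and directions below are the result.

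**Figure D1:**
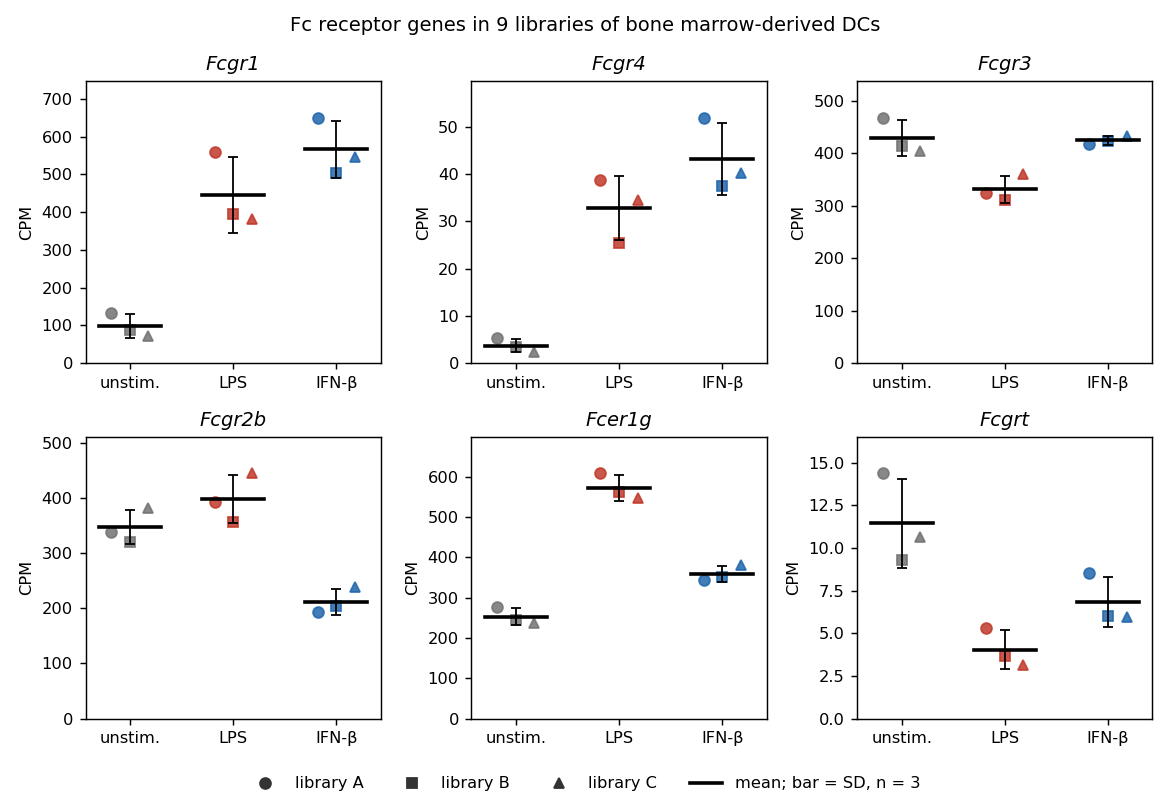
CPM of the 6 Fc receptor genes (y axis, from 0) in each library, by condition (x axis). Points are libraries A, B and C, lines are group means and bars are SD (n = 3). *Fcgr1* and *Fcgr4* sit higher in every LPS and IFN-β library than in any unstimulated library, *Fcer1g* is highest with LPS, *Fcgr2b* is lowest with IFN-β and *Fcgrt* is highest without a stimulus.

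*Fcgr1* encodes FcγRI, the high-affinity receptor, which can hold monomeric IgG. It had 132, 89.0 and 70.5 CPM in unstimulated libraries A, B and C, then 560, 395 and 382 CPM with LPS, and 650, 505 and 546 CPM with IFN-β. Every stimulated library stood above every unstimulated one, and library A was the highest in each group. The gene rose 4.58-fold with LPS (log2 fold change 2.20 ± 0.23, SE, edgeR adjusted p = 8.25e-06). With IFN-β it rose 5.83-fold (2.54 ± 0.23, edgeR adjusted p = 1.33e-05). The stimuli differed by 0.35 on the log2 scale (95% interval -0.14 to 0.83), which did not pass the threshold (edgeR adjusted p = 0.214). With the library letters as a block the difference was 0.37 and passed it (edgeR adjusted p = 0.00411), since IFN-β was higher within each of the 3 letters. In bulk RNA, more cells with a transcript and more transcript per cell cannot be told apart, here and for every member.

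*Fcgr4* encodes FcγRIV, an activating receptor for IgG2a and IgG2b, and it followed *Fcgr1* at a lower level. Unstimulated DCs held 5.30, 3.41 and 2.41 CPM, from 107 to 209 counts per library. LPS brought 38.6, 25.4 and 34.5 CPM and IFN-β 51.9, 37.4 and 40.2 CPM, without overlap with the unstimulated libraries. These were the largest changes among the members, 8.90-fold with LPS (log2 3.15 ± 0.26, edgeR adjusted p = 1.38e-06) and 11.7-fold with IFN-β (3.55 ± 0.26, edgeR adjusted p = 3.98e-06). IFN-β exceeded LPS by 0.40 (95% interval -0.11 to 0.90), with libraries that overlapped (edgeR adjusted p = 0.176). The block moved this call as it did for *Fcgr1* (0.39, edgeR adjusted p = 0.00784). Over the 9 libraries *Fcgr4* and *Fcgr1* had a Pearson r of 0.995 on log2 CPM, a description across libraries that share conditions and letters.

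Among unstimulated libraries, *Fcgr1* and *Fcgr4* ranked in the same order as 4 of the 5 interferon response genes read as a check (*Irf7*, *Ifit1*, *Isg15* and *Rsad2*). The other, *Mx1*, had 135, 142 and 111 CPM in A, B and C, highest in B. *Irf7*, a factor of the interferon response, had 228, 161 and 33.3 CPM in A, B and C, and *Ifit1*, an interferon-induced antiviral gene, had 40.7, 25.9 and 11.2 CPM. Granulocyte markers summed to 52.6, 22.5 and 19.97 CPM in these libraries, to 160, 75.7 and 53.1 CPM with LPS and to 83.6, 40.1 and 33.4 CPM with IFN-β, with *Csf3r* giving 33.1, 13.4 and 8.73 CPM of the unstimulated sums, and *Mpo* and *Elane* at 5 counts or fewer in every library. *Adgre1*, a macrophage marker, had 212, 140 and 121 CPM in the unstimulated libraries. Their part in the results was not tested. Without unstimulated library A, the log2 fold changes were larger, 2.47 with LPS and 2.83 with IFN-β for *Fcgr1*, and 3.48 and 3.88 for *Fcgr4*.

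*Fcgr3* encodes FcγRIII, the low-affinity activating receptor. Its levels were 468, 414 and 404 CPM in unstimulated DCs, 324, 310 and 360 CPM with LPS, and 418, 423 and 434 CPM with IFN-β. All LPS libraries lay below all others. LPS lowered it 1.29-fold (log2 -0.37 ± 0.08, edgeR adjusted p = 0.00203). With IFN-β the log2 fold change was -0.01 (95% interval -0.19 to 0.17, edgeR adjusted p = 0.916). Its sign turned to 0.05 without unstimulated library A. *Fcgr3* stood higher with IFN-β than with LPS by 0.36 ± 0.08 (edgeR adjusted p = 0.00419).

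*Fcgr2b* encodes FcγRIIB, the inhibitory receptor. It had 339, 321 and 381 CPM without a stimulus, 393, 357 and 444 CPM with LPS, and 193, 204 and 238 CPM with IFN-β. The IFN-β libraries lay below the other 6. *Fcgr2b* fell by 0.71 on the log2 scale with IFN-β (SE 0.11, edgeR adjusted p = 3.93e-04), a 1.64-fold change. With LPS the log2 fold change was 0.20 (95% interval -0.04 to 0.44), and the libraries overlapped with the unstimulated ones (edgeR adjusted p = 0.128). LPS was above unstimulated within each of the 3 letters, and with the letters as a block the same difference passed the threshold (0.20, edgeR adjusted p = 0.0103). IFN-β stood below LPS by 0.91 (SE 0.11, edgeR adjusted p = 5.64e-05).

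*Fcer1g* encodes the common γ chain, which the activating receptors need for signalling and for transport to the cell surface. Its levels were 277, 246 and 236 CPM in unstimulated DCs, 609, 563 and 547 CPM with LPS, and 343, 353 and 380 CPM with IFN-β. The 3 groups did not overlap, in the order unstimulated, IFN-β, LPS. It rose 2.26-fold with LPS (log2 1.18 ± 0.08, edgeR adjusted p = 4.39e-07) and 1.42-fold with IFN-β (0.50 ± 0.08, edgeR adjusted p = 6.26e-04). It was lower with IFN-β than with LPS (-0.68 ± 0.08, edgeR adjusted p = 6.47e-05).

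*Fcgrt* encodes the heavy chain of FcRn. It had 14.4, 9.27 and 10.6 CPM without a stimulus, 5.31, 3.67 and 3.13 CPM with LPS, and 8.53, 6.03 and 5.94 CPM with IFN-β, from 102 to 567 counts per library. Every stimulated library lay below every unstimulated one, and library A was the highest in each group. *Fcgrt* fell by 1.51 on the log2 scale with LPS (SE 0.23, edgeR adjusted p = 1.51e-04), a 2.84-fold change. IFN-β lowered it 1.67-fold (-0.74 ± 0.22, edgeR adjusted p = 0.0170), and it stood 1.70-fold above LPS with IFN-β (0.77 ± 0.23, edgeR adjusted p = 0.0184). In the main fit, the last 2 calls depended on which libraries were included. The IFN-β call was lost without unstimulated library A (-0.54, edgeR adjusted p = 0.0642), IFN-β library B (-0.65, adjusted p = 0.0644) or IFN-β library C (-0.64, adjusted p = 0.0630). The difference from LPS was lost without LPS library B (0.70, edgeR adjusted p = 0.0679), LPS library C (0.61, adjusted p = 0.0748) or IFN-β library A (0.57, adjusted p = 0.0750). With the letters as a block and no library left out, both passed the threshold (-0.74 and 0.76, edgeR adjusted p = 1.32e-05 and 3.31e-05). *B2m*, beta-2 microglobulin, which FcRn shares with the MHC class I molecules as its light chain, moved the other way. It rose from 1831 ± 344 CPM (SD, n = 3) to 3451 ± 433 CPM with LPS and 2916 ± 191 CPM with IFN-β, by 0.91 and 0.67 on the log2 scale (edgeR adjusted p = 2.44e-04 and 0.00367).

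**Figure D2:**
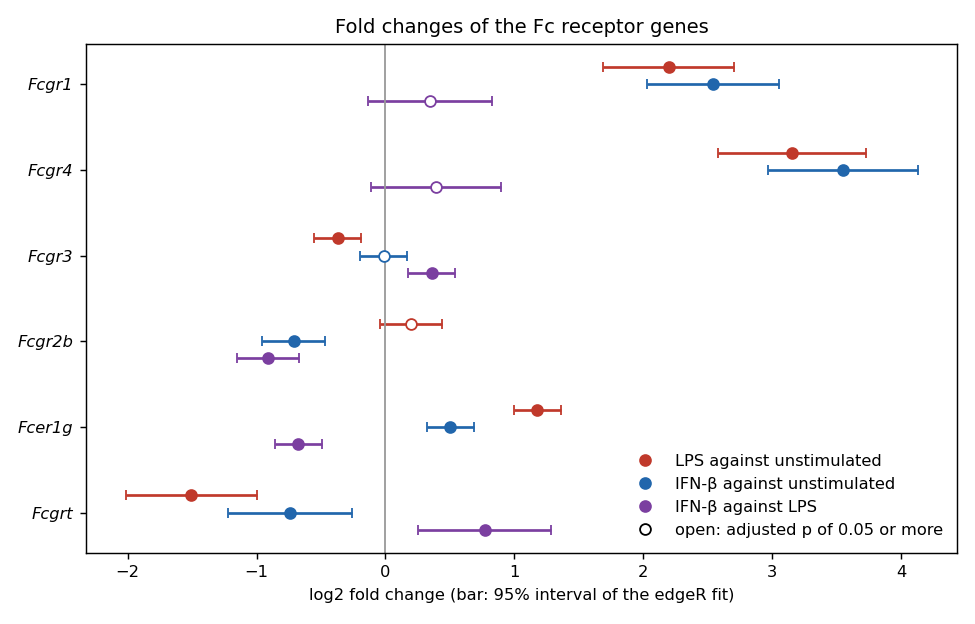
Log2 fold changes of the 6 Fc receptor genes (x axis) in the 3 comparisons, with the 95% interval of the edgeR fit as bars. Filled points passed an adjusted p of 0.05. *Fcgr1* and *Fcgr4* have the largest changes with either stimulus, and *Fcer1g* and *Fcgr2b* lie on the lower side in IFN-β against LPS.

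Exact permutation tests of log2 CPM, two-sided and 3 libraries against 3, were run for all 18 member comparisons, and their smallest possible p is 0.1. It was reached in the 14 comparisons without overlap (0.129 after Benjamini-Hochberg adjustment over the 18). The others were *Fcgr2b* with LPS (exact p = 0.2, adjusted 0.225), *Fcgr3* with IFN-β (exact p = 1.0) and *Fcgr1* and *Fcgr4* between the stimuli (exact p = 0.3 and 0.2, adjusted 0.318 and 0.225). The libraries with the same letter moved in 1 direction in 17 of the 18 comparisons. These include the 14 without overlap, where this must hold. The share over all genes was not computed, so the count says little about the members.

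The scaling matters for the small changes. TMM factors were 0.783 to 1.26, and scaling by library size alone shifted the all-gene median to -0.62 (log2) with LPS and -0.32 with IFN-β. On that scale, LPS called 2777 genes higher and 9906 lower, where the TMM scale called 5334 and 5750. IFN-β called 2146 and 7484, where the TMM scale called 3837 and 3794. Between the stimuli the counts were 7024 and 1996, beside 4194 and 3795. *Fcgr2b* then stood at -0.39 with LPS, a called change of the opposite sign (edgeR adjusted p = 0.00872). *Fcgr3* stood at -0.32 with IFN-β and was called lower (edgeR adjusted p = 0.00519), so that each stimulus had 3 members higher and 3 lower. Relative to the median of all genes these values were 0.24 and 0.01, close to the TMM scale. The other 4 members kept their directions on both scales in all 3 comparisons.

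A ratio of counts within a library does not depend on the scaling, and the ratios to *Fcgr2b* set each activating receptor against the inhibitory one. These counts are not divided by gene length, so changes between groups can be read, but not which gene stood higher. The counts of *Fcgr1* were 0.391, 0.277 and 0.185 times those of *Fcgr2b* in unstimulated libraries A, B and C, then 1.43, 1.11 and 0.859 times with LPS, and 3.37, 2.47 and 2.29 times with IFN-β. The 3 groups did not overlap. The log2 ratio rose by 2.03 ± 0.38 with LPS and by 3.30 ± 0.36 with IFN-β (SE), which is 4.08-fold and 9.84-fold. IFN-β stood 2.41-fold above LPS (1.27 ± 0.27), from 1.16 to 1.41 within the letters.

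The ratio of *Fcgr3* to *Fcgr2b* moved in opposite directions with the 2 stimuli. It was 1.38, 1.29 and 1.06 in unstimulated DCs, 0.825, 0.870 and 0.811 with LPS, and 2.17, 2.07 and 1.82 with IFN-β. No group overlapped another, and the log2 ratio was 0.57 ± 0.12 lower with LPS (a difference of -0.57) and 0.70 ± 0.14 higher with IFN-β. The IFN-β and LPS libraries differed by 1.27 ± 0.08, a 2.41-fold difference. This pattern joined a lower *Fcgr3* with LPS to a lower *Fcgr2b* with IFN-β.

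For *Fcgr4* the ratio to *Fcgr2b* was 0.0157, 0.0107 and 0.00636 without a stimulus, 0.0984, 0.0712 and 0.0777 with LPS, and 0.269, 0.183 and 0.169 with IFN-β. It stood 8.0-fold higher with LPS and 19.8-fold higher with IFN-β than in unstimulated DCs, and 2.48-fold higher with IFN-β than with LPS. All 9 ratio comparisons were without overlap, and the exact permutation test gave the smallest p that 3 against 3 allows in each (exact p = 0.1, two-sided, adjusted 0.1 over the 9). So all 3 activating receptors stood higher relative to *Fcgr2b* with IFN-β than with LPS, in every library. The 3 ratios share *Fcgr2b*, whose own log2 fold change between IFN-β and LPS was -0.91. Those of *Fcgr1*, *Fcgr3* and *Fcgr4* were 0.35, 0.36 and 0.40, and among them only *Fcgr3* passed the threshold in the main fit. The ratios are thus not separate results, and no share over other gene pairs was computed.

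**Figure D3:**
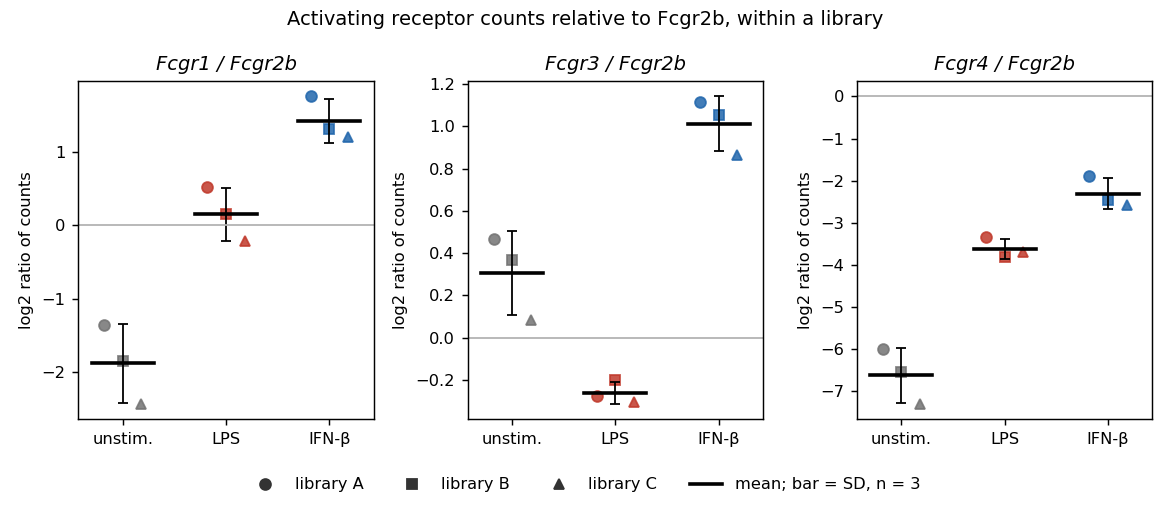
Log2 ratio of the counts of *Fcgr1*, *Fcgr3* and *Fcgr4* to those of *Fcgr2b* in the same library (y axis, a different range in each panel), by condition (x axis). Points are libraries, lines are means and bars are SD (n = 3). Every IFN-β library lies above every LPS library in each panel, and *Fcgr3* is the only one of the 3 whose ratio is lower with LPS than without a stimulus.

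Levels can be compared between genes only per length, here as CPM per kb of annotated exon. Unstimulated DCs had *Fcer1g* first (290 ± 24.5 CPM per kb, SD, n = 3), then *Fcgr3* (247 ± 19.7), *Fcgr2b* (59.9 ± 5.37), *Fcgr1* (37.6 ± 12.3), *Fcgrt* (5.44 ± 1.25) and *Fcgr4* (2.95 ± 1.16), and no neighbours in this order overlapped. With LPS the order was *Fcer1g* (655 ± 36.6), *Fcgr3* (191 ± 14.8), *Fcgr1* (172 ± 38.5), *Fcgr2b* (68.7 ± 7.60), *Fcgr4* (26.2 ± 5.39) and *Fcgrt* (1.92 ± 0.539), with *Fcgr3* and *Fcgr1* overlapping. With IFN-β it was *Fcer1g* (410 ± 22.0), *Fcgr3* (245 ± 4.73), *Fcgr1* (219 ± 29.0), *Fcgr2b* (36.6 ± 4.08), *Fcgr4* (34.4 ± 6.12) and *Fcgrt* (3.25 ± 0.699). *Fcgr3* and *Fcgr1* overlapped again, and so did *Fcgr2b* and *Fcgr4*. The order of the means was the same with the length of the longest principal transcript, a choice made after seeing the data, but no neighbours then overlapped, since that transcript is shorter than the exon length for *Fcgr3* (1347 against 1736 bases) and *Fcgr2b* (3544 against 5790) and equal to it for *Fcgr1* and *Fcgr4*.

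As shares of the 4 ligand-binding chains for IgG, *Fcgr3* gave 71.1% ± 0.894 of the summed CPM per kb without a stimulus (SD, n = 3), against 41.9% ± 4.16 with LPS and 45.9% ± 3.06 with IFN-β. *Fcgr1* went from 10.7% ± 2.53 to 37.4% ± 5.53 and 40.8% ± 3.06. *Fcgr4* went from 0.835% ± 0.257 to 5.67% ± 0.675 and 6.40% ± 0.776. The inhibitory *Fcgr2b* took 17.4% ± 2.47, 15.0% ± 1.60 and 6.86% ± 0.920. Its range in IFN-β libraries (5.88% to 7.71%) lay below that in the other 6 libraries (13.5% to 20.1%). With the principal transcript length its shares were 21.5%, 20.2% and 9.52%.

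**Figure D4:**
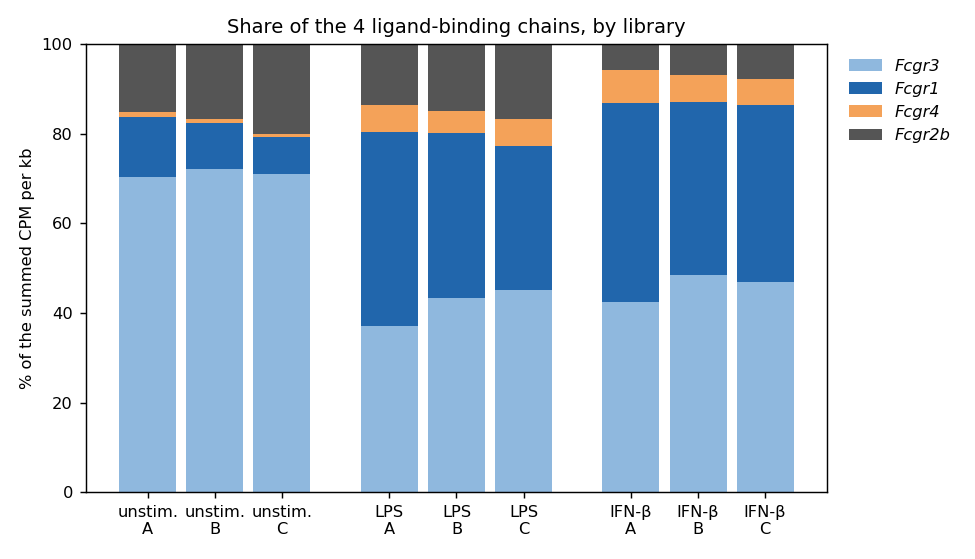
Share of *Fcgr3*, *Fcgr1*, *Fcgr4* and *Fcgr2b* in their summed CPM per kb of exon (y axis, percent) in each of the 9 libraries (x axis). *Fcgr3* takes 70.3% to 72.1% in unstimulated DCs and 37.2% to 48.4% with a stimulus, and the *Fcgr2b* share is smallest in the IFN-β libraries.

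The level of the γ chain relative to the chains that need it differed between the groups. Summed over *Fcgr1*, *Fcgr3* and *Fcgr4*, the level was 288 ± 33.04 CPM per kb without a stimulus, 389 ± 41.7 with LPS and 498 ± 32.6 with IFN-β. The level of *Fcer1g* was 0.976 to 1.03 times this sum in unstimulated libraries, 1.60 to 1.83 times with LPS and 0.736 to 0.882 times with IFN-β. The 3 groups did not overlap, with LPS highest and IFN-β lowest. The absolute ratio depends on the lengths used, and with principal transcripts it was 1.02 to 1.07, 1.83 to 2.07 and 0.844 to 0.998.

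The genes between *Fcgr2b* and *Fcer1g* on chromosome 1 were read as well, since they are neighbours of the members. Among them, *Pcp4l1*, *Nr1i3* and *Apoa2* had at most 4 counts in any library. *Sdhc*, a subunit of respiratory complex II, had log2 fold changes of -0.15 with LPS and -0.09 with IFN-β, neither past the threshold (edgeR adjusted p = 0.0576 and 0.259). *Tomm40l*, a homologue of a mitochondrial import channel, fell by 0.98 with LPS and by 0.70 with IFN-β (edgeR adjusted p = 7.43e-06 and 2.21e-04). *Cfap126*, at 42 counts or fewer, rose by 1.05 with LPS and by 1.65 with IFN-β (edgeR adjusted p = 0.0162 and 0.00135). Their names were taken by position, after the values of the members were known.

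For each member, the genes with the most similar pattern over the 9 libraries were ranked by Pearson r of log2 CPM, with no test. The closest to *Fcgr1* were *Elf1* (r = 0.997), *Nectin4* and 4930430E12Rik (both 0.996), and the closest to *Fcgr4* were *Slfn3*, *Asah2* (both 0.996) and *Asb13* (0.995). *Elf1* went from 74.0 to 106 CPM with LPS and 111 CPM with IFN-β. For *Fcer1g* they were *Washc3* (0.997), *Atp6v1e1* and *Traf5* (both 0.996). *Atp6v1e1*, a subunit of the vacuolar proton pump, had 173, 393 and 244 CPM in the 3 groups. *Fcgr2b* was closest to *Cct2* (0.975), *Septin11* (0.969) and *Carm1* (0.968), *Fcgr3* to *Cetn2* (0.983), Gm6598 (0.979) and Gm15983 (0.976), and *Fcgrt* to *Ldhb* (0.990), *Slc36a2* (0.987) and *Epb41l3* (0.983). With 3 conditions behind 9 points, high values of r are common among genes that answer both stimuli.

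Of 14 other Fc receptor genes, 6 passed the filter on low counts. *Fcer1a* and *Ms4a2*, the remaining chains of the high-affinity IgE receptor, had at most 2 counts in any library, and *Fcamr* and *Pigr*, receptors for IgM and polymeric antibody, had 0 in all 9. A count of 0 there allows up to 0.106 CPM. *Trim21*, the cytosolic antibody receptor, had 17.4 ± 3.08 CPM unstimulated (SD, n = 3), 175 ± 30.3 with LPS and 72.3 ± 5.42 with IFN-β, and rose by 3.33 and 2.06 on the log2 scale (edgeR adjusted p = 2.35e-08 and 3.25e-06). *Fcrls*, an Fc receptor-like gene, fell from 45.3 ± 1.86 CPM to 19.98 ± 1.02 with LPS and 28.4 ± 3.67 CPM with IFN-β. *Fcrlb*, another, rose by 0.83 with LPS and fell by 0.47 with IFN-β (edgeR adjusted p = 9.99e-05 and 0.00998). *Fcmr*, the IgM receptor, and *Fcrl1* rose with LPS from means of 0.0957 and 1.18 CPM (log2 2.23 and 1.40), and *Fcrla*, at 0.362 CPM, fell by 1.28. In all, LPS raised 4 and lowered 2 of the 6, beside 32.8% and 35.4% of all genes. IFN-β raised 1 and lowered 2, beside 23.6% and 23.3%. The median log2 fold change of the 6 was 1.12 with LPS and -0.43 with IFN-β. With library size only, LPS raised 2 and lowered 2, beside 2777 and 9906 of all 16260 genes.

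The γ chain also serves other receptors. Among 7 genes for its partners, 6 were tested. LPS raised 3 and lowered 3, beside 32.8% and 35.4% of all genes. IFN-β raised 2 and lowered 1, beside 23.6% and 23.3%. With the block IFN-β raised 3 and lowered 2, beside 4538 and 4613 of all 16260 genes. *Clec4e* (Mincle), a receptor for mycobacterial glycolipid, went from 110.2 ± 26.8 CPM to 1304 ± 171 with LPS and 397 ± 87.0 with IFN-β (log2 3.56 and 1.85, edgeR adjusted p = 1.06e-07 and 3.54e-05). *Gp6*, a collagen receptor of platelets, rose from 0.153 CPM to 12.3 and 2.33 CPM. *Clec4d*, which pairs with Mincle, rose by 1.19 with LPS. With IFN-β it stood at 0.24 and was not called (edgeR adjusted p = 0.204, and 0.00131 with the block). *Clec4n* (Dectin-2), a receptor for fungal mannan, had 1427 ± 84.3 CPM unstimulated and fell by 0.72 with LPS. *Clec4b1* fell by 1.97 and *Pira2* by 0.74. The alternative ITAM adaptor *Tyrobp* (DAP12) fell by 0.43 with LPS (edgeR adjusted p = 0.00730) and stood at -0.17 with IFN-β (adjusted p = 0.279), where *Fcer1g* rose with both. *Cd247*, the ζ chain of T cells, rose from 0.123 CPM to 7.20 with LPS and 0.342 with IFN-β, and *Hcst* (DAP10) was not called in any comparison on the TMM scale, where it stood at 0.051 with LPS. With library size only it fell by 0.53 with LPS (edgeR adjusted p = 0.0118).

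Downstream of the ITAM, 37 activating signalling genes were all tested. LPS raised 19 and lowered 11 (51.4% and 29.7%), and IFN-β raised 26 and lowered 5 (70.3% and 13.5%), beside 32.8% and 35.4%, and 23.6% and 23.3%, of all genes. Their median log2 fold change was 0.25 with LPS and 0.34 with IFN-β. These counts depend on the scaling. With library size only, LPS raised 12 and lowered 20 of the 37, beside 2777 and 9906 of all 16260 genes. IFN-β then raised 8 and lowered 8, beside 2146 and 7484. *Syk*, the kinase that docks on the γ chain, went from 514 ± 22.5 CPM to 969 ± 38.6 with LPS and 661 ± 46.6 with IFN-β (log2 0.91 and 0.36, edgeR adjusted p = 2.05e-06 and 0.00349). *Lyn*, a Src family kinase, rose by 1.19 with LPS and by 0.92 with IFN-β, and *Src* itself rose by 1.87 and 0.78. *Fgr*, another kinase of that family, fell by 1.30 with LPS and by 0.28 with IFN-β (edgeR adjusted p = 4.12e-08 and 0.00446). Neither *Syk* nor these 3 kinases changed direction against unstimulated DCs with library size only. Whether their calls held on that scale is not given here. That scaling shifted the all-gene median by -0.31 with IFN-β, a size near the 0.36 of *Syk*.

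Adaptors moved in both directions with LPS, and each change named with "rose" or "fell" passed the threshold on the TMM scale. The calls of these single genes with library size only are not given here. *Blnk*, an adaptor best known from B cells, rose by 2.07 with LPS and by 0.51 with IFN-β, *Malt1*, a protease of the NF-kB route, by 1.89 and 0.63, *Lcp2* (SLP-76) by 1.45 and 0.35, and *Prkce*, a protein kinase C, by 1.70 and 1.11. *Lat2* fell by 1.48 with LPS and rose by 0.52 with IFN-β, a difference of 2.0 ± 0.12 between the stimuli (edgeR adjusted p = 4.44e-07). *Vav2*, an exchange factor for small GTPases, fell by 1.74 with LPS and by 0.38 with IFN-β, *Card9*, the adaptor from Syk to NF-kB, by 1.39 and 0.66, and *Plcg1* by 0.65 and 0.46. *Lat* stood 1.46 higher with IFN-β than with LPS. Compared directly, 13 of the 37 were higher with IFN-β and 14 lower, beside 25.8% and 23.3% of all genes. With library size only 21 were higher and 9 lower, beside 7024 and 1996 of all 16260 genes.

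Of 16 inhibitory signalling genes, LPS raised 7 and lowered 6, and IFN-β raised 7 and lowered 3, with medians of 0.05 and 0.22. LPS thus raised 43.8% and lowered 37.5% of them, beside 32.8% and 35.4% of all genes, and IFN-β raised 43.8% and lowered 18.8%, beside 23.6% and 23.3%. With library size only, LPS raised 3 and lowered 10, beside 2777 and 9906 of all 16260 genes. IFN-β then raised 3 and lowered 6, beside 2146 and 7484. *Inpp5d*, which encodes SHIP1, the phosphatase that FcγRIIB recruits, went from 219.7 ± 7.71 CPM to 61.8 ± 6.74 with LPS and 194 ± 2.76 with IFN-β. It fell by 1.83 with LPS (SE 0.08, edgeR adjusted p = 1.86e-08), while *Fcgr2b* itself stood at 0.20. With IFN-β *Inpp5d* stood at -0.18 (edgeR adjusted p = 0.0874, and 0.0434 with the letters as a block), while *Fcgr2b* fell. IFN-β and LPS differed by 1.65 for *Inpp5d* and by -0.91 for *Fcgr2b*, so the receptor was lower with IFN-β and its phosphatase lower with LPS.

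Other ITIM receptors and docking proteins moved on their own. *Cd300a*, an inhibitory receptor for phospholipids, fell by 2.69 with LPS and stood at 0.06 with IFN-β. *Dok2*, an adaptor that restrains Ras, fell by 1.54 with LPS and by 0.27 with IFN-β, while its relative *Dok1* rose by 1.42 and 0.55 and *Dok3* fell by 0.34 and 0.46. *Clec4a2* (an ITIM lectin) fell by 1.48 and 0.38. The phosphatase *Ptpn6* (SHP-1) rose by 0.68 and 0.84 and *Pirb* by 0.87 and 0.71. *Ptpn11* (SHP-2) rose by 0.90 with LPS and stood at 0.08 with IFN-β, or at -0.22 and called lower with library size only. *Siglece* rose by 1.08 with LPS and was 2.11 lower with IFN-β than with LPS, at 1.11 to 4.75 CPM in the group means.

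**Figure D5:**
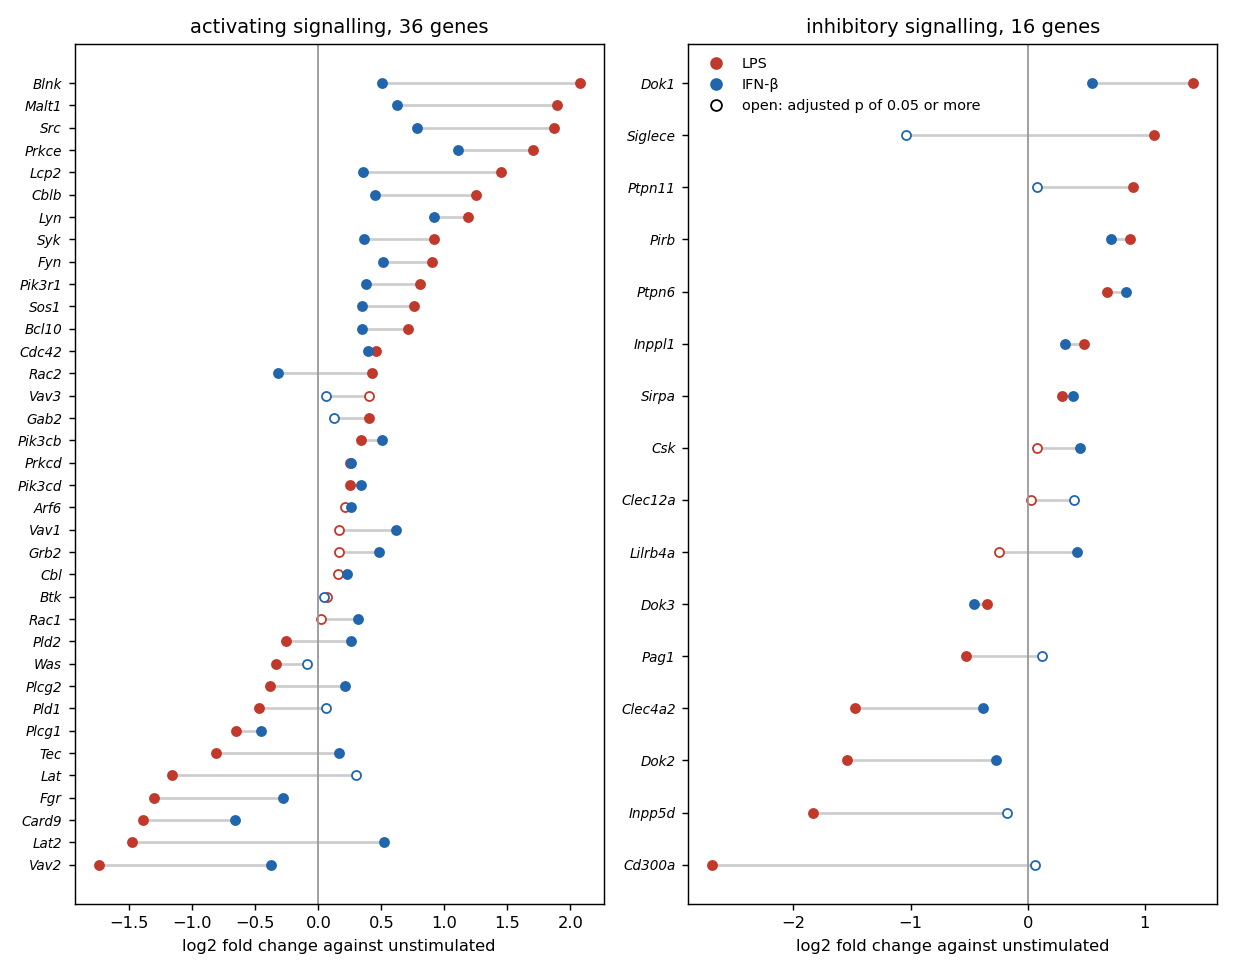
Log2 fold changes against unstimulated DCs (x axis) of 36 of the 37 activating and all 16 inhibitory signalling genes (y axis, ordered by the LPS value), with LPS in red and IFN-β in blue. Open points did not pass an adjusted p of 0.05. *Vav2*, *Lat2*, *Inpp5d* and *Cd300a* lie far to the left with LPS and near or above -0.38 with IFN-β.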

How the data were processed

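RNA-seq of 9 libraries of mouse GM-CSF bone marrow-derived DCs (3 per group) was analysed. RNA was depleted of ribosomal RNA, and paired 100-base reads were trimmed (Trim Galore 0.6.0 in the submitters' processing notes), mapped to mm10 with STAR (2.7.8a in those notes) and counted on GENCODE M20 genes by the authors, who deposited raw counts per gene, without normalization or filter. The strand setting is not given in the sources used here.

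Counts were fitted with edgeR 4.0.16 in R 4.3.3 (limma 3.58.1): filterByExpr (16260 of 55471 genes), TMM factors, 1 term per group over 9 libraries, quasi-likelihood F-tests and Benjamini-Hochberg adjustment over all tested genes, with a threshold of 0.05. The SE is the absolute log2 fold change divided by the root of F. Ratios used a pseudocount of 0.5 counts, and single libraries 0.5 CPM. Positions and lengths come from GENCODE M21, and 55144 identifiers had an entry. The edgeR fit was tested on simulated counts, for LPS against unstimulated only. That simulation had no letter effect and fewer changed genes than these data, and it covered no other step. Depth was 33425803 to 43735199 counts, and floors (3 counts) cover counting error only.

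Replicates of a group differed by more than sampling noise (chi-square per degree of freedom of 13.5 to 37.1). After the group means were subtracted, the 9 same-letter pairs correlated across genes at 0.134 to 0.546, and the 18 others at -0.480 to 0.0622. By this check from the data the letters were taken to pair the libraries, and the labels do not say what they mark. The main fit has no block, following the study's methods.

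The members and the gene lists were chosen with earlier results of these data known. Named genes are the members, their direct partners, up to 3 genes per direction of each list with the largest changes past the threshold in each comparison, and the 3 genes most correlated with each member. Alternatives were DESeq2 1.42.0, upper-quartile factors, library size only, every gene unfiltered, at least 10 counts in every library, only the 2 groups compared, a letter block and leaving out each library. Protein sequences were not used here, and some genes of the lists are not reported here by name.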

Additional observations from a re-analysis of the deposited data

How the results depend on the processing

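Of the 18 member comparisons, 12 kept their direction and their side of the threshold under all 16 alternatives of the fit. With library size only, *Fcgr2b* with LPS stood at -0.39 and *Fcgr3* with IFN-β at -0.32, and between the stimuli *Fcgr1* stood at 0.63 and *Fcgr4* at 0.67, all 4 past the threshold. Without a filter on low counts these last 2 differences were 0.37 and 0.42 and passed it. With the letters as a replicate block, *Fcgr2b* with LPS (0.20), *Fcgr1* between the stimuli (0.37) and *Fcgr4* between the stimuli (0.39) passed it, and the block changed no other call of a member. Leaving out single libraries gave -0.055 to 0.051 for *Fcgr3* with IFN-β, -0.94 to -0.54 for *Fcgrt* with IFN-β and 0.57 to 1.0 for *Fcgrt* between the stimuli. A minimum log2 fold change of 1 in either direction left 2 members called with IFN-β and 0 between the stimuli, because their changes are smaller. Between the stimuli, edgeR gave 4 at an unadjusted p under 0.05 and DESeq2 called 4. Apart from these, the cause of each change was not tested. All 72 alternatives of the *Fcgr2b* ratios stayed within 1 SD, which says little. Scaling cannot move a ratio within a library, and leaving out 1 of 3 libraries moves a group mean by less than its SD. The standard errors of *Fcgr1*, *Fcgr4* and *Fcgrt* (log2 0.22 to 0.26) were wider than those of the other members.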
